A study of Mus musculus with 4 samples.

Results

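Single-cell RNA levels of 42 genes for collagens, other matrix proteins, matrix proteases and protease inhibitors were measured in mouse pancreatic ductal adenocarcinoma (PDAC). The 42 were chosen by gene symbol, and each was found once among 32285 features. The 4 droplet libraries (10x Genomics) held 1 group each. These were control (PBS), PH (paricalcitol, a vitamin D analogue, with hydroxychloroquine, which impairs lysosomal degradation), G (gemcitabine, a nucleoside analogue) and GPH, all 3 agents together. GPH was identified by its title, as its label for treatment ends early, with gemcitabine at 60 mg/kg. Each library pooled tumour pieces of 3 animals, and strain, genotype, age and the origin of the tumour cells are not given in the sources used here. The study asked how paricalcitol with hydroxychloroquine alters the response of these tumours to gemcitabine. With 1 library a group there was no replicate spread and no test, so every difference below compares libraries, not conditions.

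Fibrillar collagens give a tumour its tensile scaffold, and type IV collagen with nidogen forms the sheet-like basement membrane under epithelium and endothelium. Glycoproteins such as fibronectin link these fibres to cells, small leucine-rich proteoglycans such as decorin coat and space the fibrils, lysyl oxidases crosslink them, and metalloproteinases and their TIMP inhibitors set their turnover. In pancreatic cancer the dense stroma is mostly attributed to fibroblasts, but tumour cells of mesenchymal character and macrophages also transcribe matrix genes.

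Levels are counts of unique molecular identifiers (UMIs, 1 per captured RNA molecule) summed over the cells of a class in a library, divided by all UMIs of those cells and scaled by 1e+06 (CPM). Where 4 values follow each other they stand for control, PH, G and GPH in that order, written from control to GPH. Intervals are 95% and cover counting error only. The libraries held 143298547 to 190110092 UMIs, and 10074, 13977, 12449 and 4411 cells from control to GPH were kept, with medians of 9635, 7862, 4610 and 20103 UMIs from control to GPH. In GPH 41.0% of barcodes exceeded the limit of 20% mitochondrial UMIs, against 12.7% to 15.6% in the others. Pairs of libraries shared 17 to 79 cell barcodes, at most 0.594% of the smaller library.

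Vim-high tumour clusters (vimentin at 2000 CPM or more, Xist under 50 CPM) held 8055, 10673, 1908 and 1469 cells from control to GPH. Krt19-high tumour clusters (keratin 19 at 1000 CPM or more) held 1320 cells in G and 2118 in GPH, but 1 in control and 5 in PH, so they were described in G and GPH only. Macrophage-like clusters, with all 12 of 12 macrophage markers detected, held 255, 352, 1704 and 48 cells from control to GPH. T cell-like clusters (368, 370, 2886 and 51 cells from control to GPH) served as a class that should lack most matrix RNA. Xist, the RNA of the inactive X chromosome of female cells, stood at 847, 1105, 1110.0 and 1432 CPM from control to GPH in T cell-like cells. In Vim-high cells it was 0.975, 2.03, 8.80 and 0.497 CPM from control to GPH. Kdm5d, Uty and Eif2s3y, which lie on the Y chromosome, summed to 0.0757, 0.475, 8.84 and 11.8 CPM from control to GPH in Vim-high cells, so the Vim-high cells of G and GPH differ from those of control and PH also in this respect. Comparisons of G or GPH with control or PH cross that difference, and treatment and tumour-cell origin cannot be told apart in them.

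Cells outside the immune clusters with at least 2 UMIs of Lum, Mfap5 and Pdgfra together, the gate meant to select fibroblasts, numbered 1053, or 2.57% of all cells. The data went against the label for most of them. Of the 1053, 917 (87.1%) lay in Vim-high clusters, 923 (87.7%) had Cdkn2a UMIs and none of Xist, and 927 (88.0%) passed through Lum alone. A further 1104 non-immune cells had 1 UMI of the gate genes, and 411 gated cells (39.0%) had exactly 2. A further 101 gated cells lay in a single cluster that expressed Xist and was led by Serping1, Hspb1 and Col1a2. In these Xist-bearing gated cells, 31, 26, 24 and 20 from control to GPH, all 10 fibroblast markers were detected. The list was Pdgfra, Dpt, Pi16, Clec3b, Gsn, Serping1, C3, Lum, Mfap5 and Dcn. It summed to 1882, 7732, 21624 and 18054 CPM from control to GPH. Detection asks less than the rule used to name clusters (50 CPM and 2-fold over other cells). By that rule the whole cluster, gated or not, had 5 fibroblast and 5 endothelial markers and was given no cell type. Pdgfra, Lum and Mfap5 are the gate genes, and Lum, Mfap5 and Dcn are members, so the sum follows in part from the gate. Their median depths were 43449, 15462, 7012 and 2316 UMIs from control to GPH. Xist in them stood at 84.2, 533, 714 and 1654 CPM from control to GPH. A Xist UMI was found in 22 of 31, 25 of 26, 23 of 24 and 17 of 20 cells. In control 9 of the 31 had Cdkn2a UMIs and none of Xist, against 0 in PH, G and GPH. In control 27 of 31 and in PH 16 of 26 had Cdkn2a UMIs, against 5 of 24 in G and 1 of 20 in GPH. The mesenchymal tumour marker list summed to 8296, 6708, 3862 and 3487 CPM from control to GPH. The part of tumour RNA or doublets in their values was not tested. Below, gated cells are all 1053, and Xist-bearing gated cells the 101. The latter name refers to their cluster, as not each of the 101 had a Xist UMI. Lum and Mfap5 are in the gate, so their levels in gated cells follow from it.

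Promoter sequence was at hand for 26 of the 42 genes (RefSeq, mouse build GRCm38.p6; 250 bases before each start, plus strand for the 4 genes here). These 4 are shown because the results below turn on where their RNA was found: Col1a2 at chr6:4505368-4505617 and Col3a1 at chr1:45311288-45311537, fibrillar chains with a large and a smaller difference between Vim-high and Xist-bearing gated cells, and the proteases Mmp13 at chr9:7272264-7272513 and Mmp3 at chr9:7445572-7445821, found in macrophage-like and in Xist-bearing gated cells. Capitals mark CCAAT (or its reverse complement ATTGG) in the collagen genes and the AP-1 sequence TGACTCA (or TGAGTCA) in the proteases.
Col1a2: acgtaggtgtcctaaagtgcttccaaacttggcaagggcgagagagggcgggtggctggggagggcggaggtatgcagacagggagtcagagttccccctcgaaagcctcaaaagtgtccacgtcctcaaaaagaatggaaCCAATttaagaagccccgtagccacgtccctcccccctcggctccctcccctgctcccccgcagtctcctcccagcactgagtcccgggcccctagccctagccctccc
Col3a1: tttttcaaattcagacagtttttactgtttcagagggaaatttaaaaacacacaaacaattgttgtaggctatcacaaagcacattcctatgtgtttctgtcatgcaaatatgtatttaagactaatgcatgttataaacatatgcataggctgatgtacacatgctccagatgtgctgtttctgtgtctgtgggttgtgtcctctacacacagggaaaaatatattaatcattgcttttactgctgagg
Mmp13: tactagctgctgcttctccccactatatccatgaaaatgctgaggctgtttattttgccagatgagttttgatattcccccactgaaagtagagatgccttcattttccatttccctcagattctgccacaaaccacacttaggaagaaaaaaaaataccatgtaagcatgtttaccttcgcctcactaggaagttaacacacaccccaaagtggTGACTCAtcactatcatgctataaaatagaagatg
Mmp3: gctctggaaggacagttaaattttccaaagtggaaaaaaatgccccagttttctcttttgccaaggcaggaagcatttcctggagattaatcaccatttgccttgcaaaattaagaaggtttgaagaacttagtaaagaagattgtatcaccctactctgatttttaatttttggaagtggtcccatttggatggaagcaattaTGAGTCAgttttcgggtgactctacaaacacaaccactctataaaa
The Col1a2 window holds 1 CCAAT, 109 bases before the start, and 11 CpG pairs. The Col3a1 window holds no CCAAT and 0 CpG pairs. The AP-1 match lies 35 bases before the start of Mmp13 and 46 before that of Mmp3, each with 1 CpG pair in the window. CCAAT occurs on either strand in 33.8% of all 32851 such windows and in 10 of the 26 members with one, and the AP-1 sequence in 4.46% of windows and in 3 members (Col6a1, Mmp13 and Mmp3). The GC box GGGCGG (or CCGCCC) occurs in 32.7% of windows and in 15 members; the 26 members have 29 windows, as some have more than 1 start. No motif contains another. A match describes the letters and not a site in use.

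Fibrillar collagen RNA was found in the Vim-high cells and in the Xist-bearing gated cells, and was at most 4.28 CPM in Krt19-high cells for Col1a1, Col1a2 and Col3a1. Col1a1, the main chain of type I collagen, stood at 40.1, 15.6, 92.9 and 88.1 CPM from control to GPH in Vim-high cells. In Xist-bearing gated cells Col1a1 was 2014, 5024, 3292 and 5546 CPM from control to GPH. Each Xist-bearing gated value was thus above every Vim-high one, by a ratio within the library of 50.2 (95% interval 48.0 to 52.4) in control and 322 (95% interval 303 to 342) in PH. Krt19-high cells had 0.954 and 0.564 CPM in G and GPH, and T cell-like cells 8.76, 1.85, 1.06 and 0 (allowing up to 15.4) CPM from control to GPH. Col1a1 among the few cells with Xist and no Cdkn2a UMI (4, 9, 18 and 16 of the gated cells) was 17946, 11051, 2812 and 7243 CPM from control to GPH, high in each library.

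Col1a2, the second chain of type I collagen, was 11.4, 2.34, 12.5 and 7.09 CPM from control to GPH in Vim-high cells against 1530.4, 4869, 3096 and 5062 CPM from control to GPH in Xist-bearing gated cells. Col1a2 UMIs per Col1a1 UMI numbered 0.285 (95% interval 0.268 to 0.302), 0.150 (95% interval 0.132 to 0.169), 0.135 (95% interval 0.120 to 0.151) and 0.0805 (95% interval 0.0694 to 0.0931) from control to GPH in Vim-high cells. In Xist-bearing gated cells the same ratio was 0.760, 0.969, 0.940 and 0.913 from control to GPH. The 2 classes did not overlap: Vim-high cells held at most 0.285 Col1a2 UMIs per Col1a1 UMI, and Xist-bearing gated cells at least 0.760. Gated cells within the Vim-high clusters resembled the Vim-high class, at 0.190, 0.107, 0.0867 and 0.0303 from control to GPH. The ratios compare classes, since capture of the 2 chains need not be equal.

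Col3a1, the single chain of type III collagen, differed less between the classes. Its level was 322, 263, 415 and 679.5 CPM from control to GPH in Vim-high cells and 1888, 7511, 8718 and 5028 CPM from control to GPH in Xist-bearing gated cells. A Col3a1 UMI was seen in 79.5%, 69.0%, 84.2% and 92.7% of Vim-high cells in the same order, against 3.53%, 2.16%, 0.866% and 5.88% of T cell-like cells, at median depths of 11259, 9389, 11078 and 15320.0 and 2373, 2193, 3577 and 3492 UMIs. Thinned to 2000 UMIs a cell, the Vim-high shares were 41.9%, 36.2%, 48.5% and 59.2%.

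Type V collagen, which nucleates fibrils of type I collagen, showed the same split of its chains. Col5a1 was 42.6, 27.7, 33.4 and 62.8 CPM from control to GPH in Vim-high cells and 185, 283, 440.0 and 439 CPM from control to GPH in Xist-bearing gated cells. Col5a2 was 1.24, 0.646, 1.89 and 4.18 CPM from control to GPH in Vim-high cells but 199, 665, 507 and 799 CPM from control to GPH in Xist-bearing gated cells. Per Col5a1 UMI there were 0.0291, 0.0234, 0.0567 and 0.0666 Col5a2 UMIs from control to GPH in Vim-high cells and 1.07, 2.35, 1.15 and 1.82 from control to GPH in Xist-bearing gated cells. The ranges were far apart in all 4 libraries. Col12a1, a collagen that binds to fibril surfaces, stood at 7.40, 3.13, 5.02 and 7.66 CPM from control to GPH in Vim-high cells and 145, 702, 160.5 and 551 CPM from control to GPH in Xist-bearing gated cells.

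**Figure D1:**
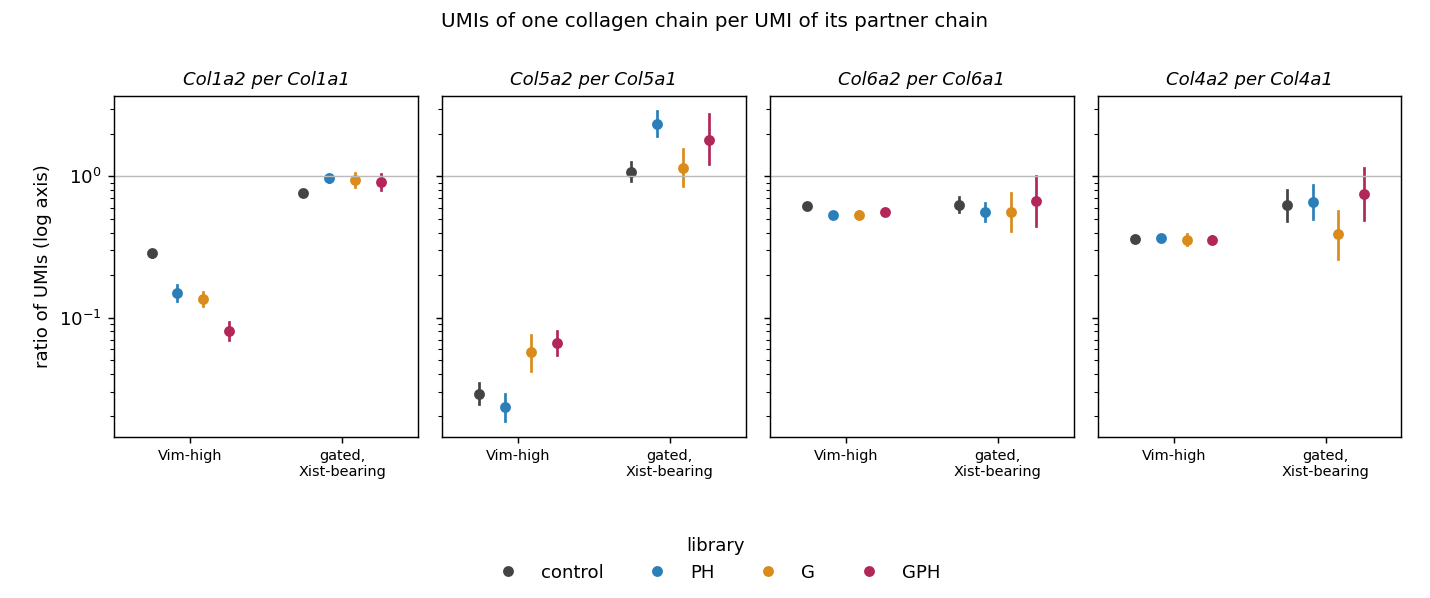
UMIs of one collagen chain per UMI of its partner chain (vertical axis, log scale) for 4 chain pairs in each library, in Vim-high cells and in Xist-bearing gated cells; points are ratios of summed UMIs with 95% intervals. For Col1a2 per Col1a1 the Vim-high points lie between 0.0805 and 0.285 and the Xist-bearing gated points between 0.760 and 0.969, while Col6a2 per Col6a1 lies between 0.534 and 0.672 in both.

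Type VI collagen forms microfibrils around cells, and its chains Col6a1 and Col6a2 had like proportions in both classes, while Col6a3 was relatively higher in Xist-bearing gated cells of 3 libraries. Col6a1 was 185, 186, 140.4 and 312 CPM from control to GPH in Vim-high cells and 369, 1049, 611 and 719.9 CPM from control to GPH in Xist-bearing gated cells. Col6a2 was 114, 99.3, 75.3 and 175 CPM from control to GPH and 232, 584, 342 and 484 CPM in the same cells. Per Col6a1 UMI this made 0.614, 0.534, 0.536 and 0.561 Col6a2 UMIs from control to GPH in Vim-high cells and 0.631, 0.557, 0.559 and 0.672 from control to GPH in Xist-bearing gated cells, values that overlap. Col6a3, the largest chain, was 60.2, 36.8, 39.6 and 73.1 CPM from control to GPH in Vim-high cells and 182, 392, 207 and 416 CPM from control to GPH in Xist-bearing gated cells. Per Col6a1 UMI there were 0.326, 0.198, 0.282 and 0.234 Col6a3 UMIs from control to GPH in Vim-high cells and 0.493, 0.374, 0.339 and 0.578 from control to GPH in Xist-bearing gated cells, with overlapping 95% intervals in G. Krt19-high cells had 6.05 and 7.55 CPM in G and GPH for Col6a1.

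Of the collagens among the members, the basement membrane chain Col4a1 was the highest in Krt19-high cells. Its partner Col4a2 was near Col6a1 there, which stood at 6.05 and 7.55 CPM in G and GPH. Col18a1, a basement membrane collagen that is not a member, was higher than Col4a1 there, at 49.6 and 75.8 CPM in G and GPH. Col4a1, a chain of type IV collagen, stood at 84.5, 87.1, 61.8 and 152 CPM from control to GPH in Vim-high cells. Krt19-high cells had 15.0 and 28.8 CPM in G and GPH, with a ratio to Vim-high of 0.242 (95% interval 0.221 to 0.266) in G and 0.190 (95% interval 0.181 to 0.199) in GPH. Xist-bearing gated cells had 94.6, 285, 507 and 629.9 CPM from control to GPH. Cells of the same Xist-bearing cluster outside the gate with at least 2 UMIs of the endothelial genes Pecam1, Cdh5 and Kdr numbered 19, 29, 39 and 4 from control to GPH. Col4a1 in them was 1450.0, 2172 and 1191 CPM in control, PH and G, above every other class in those libraries.

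Col4a2, the partner chain, was 30.5, 31.9, 22.0 and 54.0 CPM from control to GPH in Vim-high cells and 5.65 and 10.0 CPM in G and GPH in Krt19-high cells. Its UMIs per Col4a1 UMI were 0.361, 0.366, 0.357 and 0.356 from control to GPH in Vim-high cells, 0.377 and 0.349 in G and GPH in Krt19-high cells and 0.706, 0.684 and 0.557 in control, PH and G in the endothelial-gated cells. Exons of Col4a1 and Col4a2 overlap on opposite strands of chromosome 8. Nid1, nidogen, which ties laminin to type IV collagen, was 52.8, 117, 58.3 and 73.4 CPM from control to GPH in Vim-high cells, 11.3 and 18.4 CPM in G and GPH in Krt19-high cells and 71.0, 246, 450.4 and 405 CPM from control to GPH in Xist-bearing gated cells. PH was the highest of the Vim-high values.

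**Figure D2:**
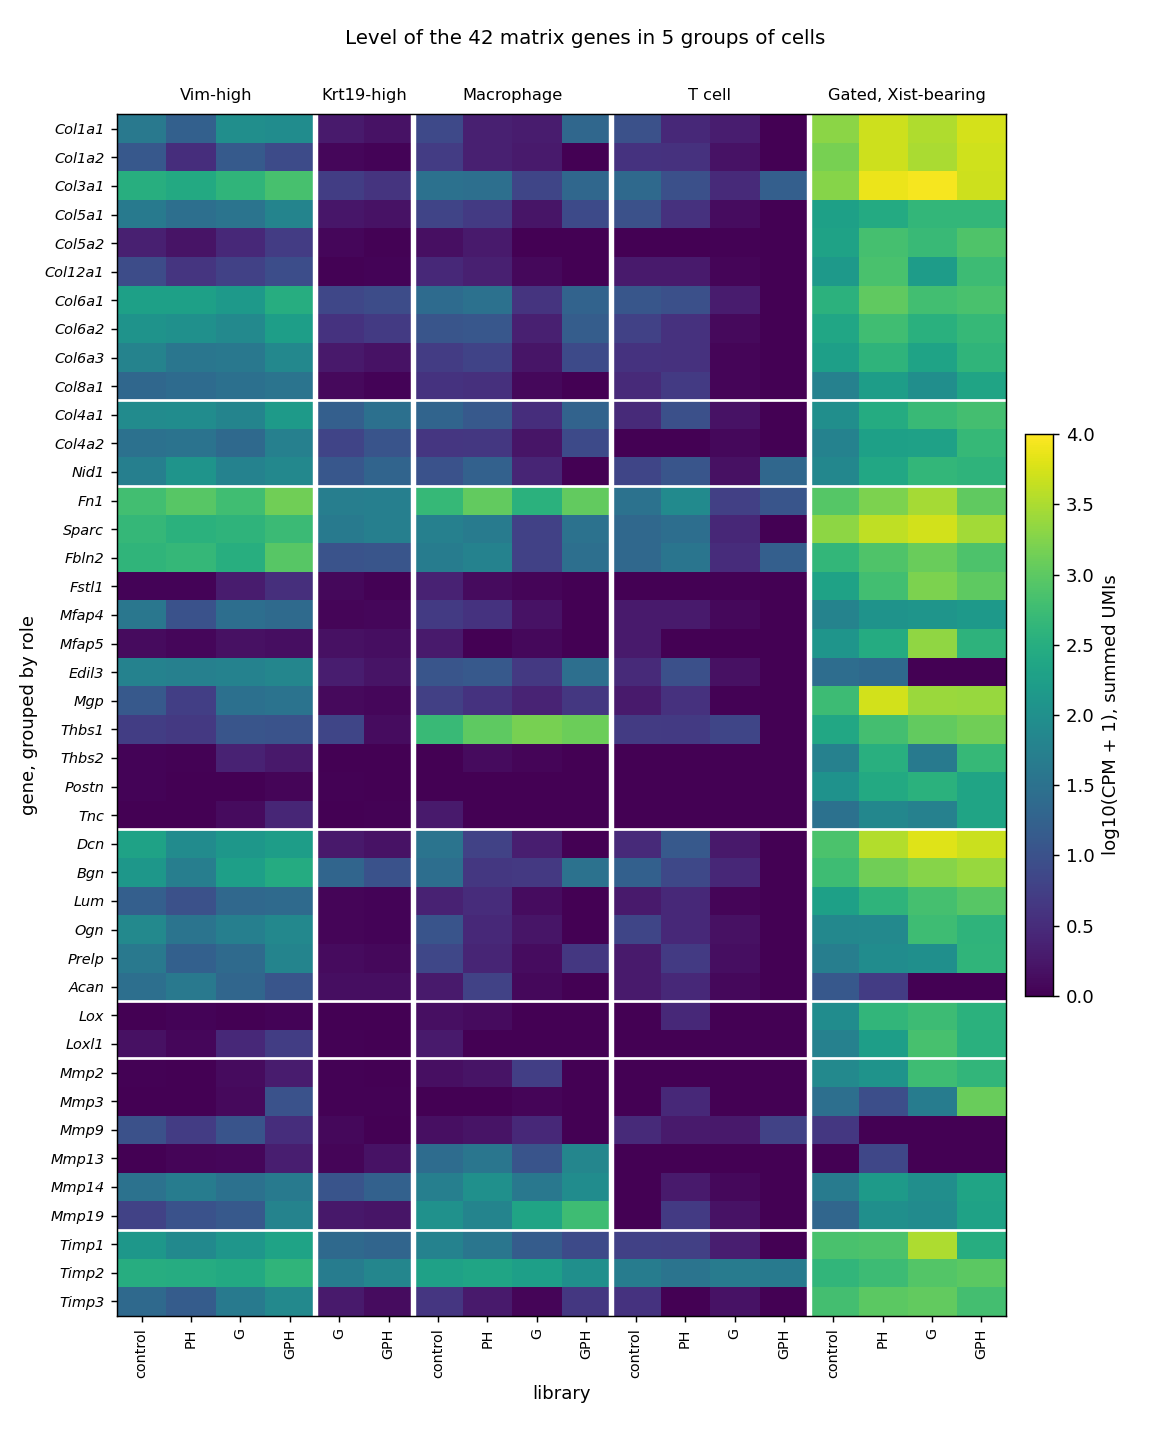
Heat map of log10(CPM + 1) for the 42 genes (rows, grouped by role) in each class and library (columns). Bright means high: the Krt19-high columns are dark for most genes and brightest for Fn1, Sparc and Timp2, the T cell-like columns are dark for most genes but not Timp2, and the macrophage-like columns are bright for Fn1, Thbs1, Mmp19 and Timp2.

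Fn1, fibronectin, which links collagen to integrins, was high in macrophage-like as well as Vim-high cells. Vim-high cells had 614, 898, 603 and 1377 CPM from control to GPH and macrophage-like cells 484, 1089, 361 and 1076 CPM from control to GPH. The macrophage-like ratio to Vim-high was 0.788 (95% interval 0.741 to 0.838) in control, 1.21 (95% interval 1.17 to 1.26) in PH and 0.599 (95% interval 0.577 to 0.623) in G. Fn1 UMIs were found in 50.6%, 68.2%, 26.3% and 52.1% of macrophage-like cells and in 5.71%, 7.03%, 1.80% and 3.92% of T cell-like cells at medians of 6481, 7368, 4112 and 2799 and 2373, 2193, 3577 and 3492 UMIs. In every library the macrophage-like share was the higher. Cdkn2a, high in Vim-high cells (1218, 1170.1, 1048 and 827 CPM from control to GPH), stood at 113, 101, 11.6 and 24.5 CPM from control to GPH in macrophage-like cells, and the part of tumour RNA in the Fn1 values was not tested. Library by library from control to GPH, Fn1 and Cdkn2a in these cells were 484 and 113, 1089 and 101, 361 and 11.6, and 1076 and 24.5 CPM.

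Thbs1, thrombospondin 1, an adhesive glycoprotein that activates latent TGF-beta, was higher in macrophage-like cells than in any other class described of at least 50 cells. It stood at 505, 1002, 1487 and 1265 CPM from control to GPH in macrophage-like cells. In Vim-high cells it was 4.24, 3.64, 10.1 and 9.72 CPM from control to GPH, and in T cell-like cells 3.89, 3.71, 5.86 and 0 (allowing up to 15.4) CPM from control to GPH. The ratio of macrophage-like to Vim-high was 276 (95% interval 249.9 to 304) in PH and 147 (95% interval 130.1 to 166) in G. Thbs1 UMIs were found in 52.5%, 49.7%, 77.2% and 56.2% of macrophage-like cells and at most 1.07% of T cell-like cells. Xist-bearing gated cells also carried it, at 249.8, 638, 1103 and 1361 CPM from control to GPH. Its relative Thbs2 was at most 1.38 CPM in Vim-high, Krt19-high, macrophage-like and T cell-like cells, 9.51, 38.8, 5.91 and 14.3 CPM from control to GPH in all gated cells and 57.1, 328, 41.4 and 484 CPM from control to GPH in the Xist-bearing ones.

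Sparc, osteonectin, a collagen-binding protein, was 468, 359, 403 and 534 CPM from control to GPH in Vim-high cells and 43.1 and 51.9 CPM in G and GPH in Krt19-high cells. Xist-bearing gated cells had 2093, 4068, 5358 and 2767 CPM from control to GPH. Fbln2, fibulin 2, a glycoprotein of basement membranes and elastic fibres, was 412, 455, 326 and 903 CPM from control to GPH in Vim-high cells. Xist-bearing gated cells had 451, 799, 1237 and 765 CPM from control to GPH, so that GPH was the one library with more Fbln2 in Vim-high than in Xist-bearing gated cells.

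Several matrix glycoproteins were near 0 in Vim-high cells and high in Xist-bearing gated cells. Postn, periostin, a glycoprotein of remodelling stroma, was at most 0.142 CPM in Vim-high cells and had no UMI in macrophage-like or T cell-like cells. Xist-bearing gated cells had 108, 272, 357 and 214 CPM from control to GPH. Fstl1, a secreted SPARC-family glycoprotein, was 0.0757, 0.0856, 1.02 and 2.41 CPM from control to GPH in Vim-high cells and 199, 621, 1636 and 1001 CPM from control to GPH in Xist-bearing gated cells. Tnc, tenascin C, was at most 1.74 CPM in Vim-high cells and 30.6, 70.2, 56.9 and 214 CPM from control to GPH in Xist-bearing gated cells. Mgp, matrix Gla protein, an inhibitor of calcification, was 11.9, 4.47, 28.7 and 31.8 CPM from control to GPH in Vim-high cells and 550.3, 5371, 2516 and 2452 CPM from control to GPH in Xist-bearing gated cells. Col8a1, a short-chain collagen, differed less between the classes, with 20.9, 24.2, 29.5 and 33.5 CPM from control to GPH in Vim-high cells and 56.0, 165, 93.2 and 214 CPM from control to GPH in Xist-bearing gated cells.

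The crosslinking enzymes followed Postn. Lox, lysyl oxidase, was at most 0.106 CPM in Vim-high cells but 86.5, 425, 544 and 360.0 CPM from control to GPH in Xist-bearing gated cells. Loxl1, its paralogue that also crosslinks elastin, was 0.488, 0.163, 1.89 and 4.40 CPM from control to GPH and 56.5, 173, 673 and 349 CPM in the same cells and libraries. Mfap5, a microfibril protein used by the gate, was at most 0.509 CPM in Vim-high cells and 120.0, 293, 2205 and 382 CPM from control to GPH in Xist-bearing gated cells, as the gate favours. G was the highest of these.

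The small leucine-rich proteoglycans were shared by Vim-high and Xist-bearing gated cells. Dcn, decorin, was 201, 83.2, 131 and 166 CPM from control to GPH in Vim-high cells and 737, 3414, 6471 and 4792 CPM from control to GPH in Xist-bearing gated cells. A Dcn UMI was found in 36.9%, 15.6%, 24.3% and 26.4% of Vim-high cells in the same order, and in 0.543%, 1.35%, 0.381% and 0% of T cell-like cells. Thinned to 2000 UMIs the Vim-high shares were 20.2%, 8.44%, 13.5% and 14.4%, with control again the highest and PH the lowest. Bgn, biglycan, was 131, 49.9, 178 and 291 CPM from control to GPH in Vim-high cells, 19.1 and 9.25 CPM in G and GPH in Krt19-high cells and 568, 1368, 1864 and 2452 CPM from control to GPH in Xist-bearing gated cells.

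Prelp and Ogn (osteoglycin) stood apart from Dcn and Bgn in control, where they were about as high in Vim-high as in Xist-bearing gated cells. In PH, G and GPH both were higher in Xist-bearing gated cells. Ogn was 74.1, 33.2, 52.7 and 72.5 CPM from control to GPH in Vim-high cells and 73.3, 76.4, 569 and 405 CPM from control to GPH in Xist-bearing gated cells, a ratio in control of 0.989 (95% interval 0.823 to 1.18). Prelp was 39.7, 15.8, 23.0 and 62.4 CPM from control to GPH and 49.6, 86.7, 98.4 and 416 CPM, with a ratio in control of 1.25 (95% interval 0.998 to 1.55). Lum, lumican, part of the gate, was 15.4, 8.68, 21.4 and 23.1 CPM from control to GPH in Vim-high cells. Mfap4, a microfibril-associated glycoprotein, was 37.3, 9.25, 27.2 and 23.3 CPM from control to GPH in Vim-high cells and 60.6, 114, 119 and 146 CPM from control to GPH in Xist-bearing gated cells.

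Edil3 and Acan were matrix genes of the Vim-high cells. Edil3, an integrin ligand, was 58.1, 54.3, 57.4 and 66.9 CPM from control to GPH in Vim-high cells against 26.0, 22.7, 0 (allowing up to 15.5) and 0 (allowing up to 33.7) CPM from control to GPH in Xist-bearing gated cells. Acan, aggrecan, the large proteoglycan of cartilage, was 28.4, 40.6, 19.6 and 10.2 CPM from control to GPH in Vim-high cells against 11.5, 4.13, 0 (allowing up to 15.5) and 0 (allowing up to 33.7) CPM from control to GPH in Xist-bearing gated cells. In GPH the Acan limit lies above the Vim-high value, so no order can be read there. Edil3 was highest in GPH and Acan in PH among Vim-high cells.

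The proteases showed 3 patterns, of which Mmp2 and Mmp3 made the first. Mmp2, gelatinase A, was at most 1.03 CPM in Vim-high cells and 76.7, 111, 575 and 427 CPM from control to GPH in Xist-bearing gated cells. Mmp3, stromelysin 1, was at most 9.01 CPM in Vim-high cells and 27.7, 8.26, 46.6 and 1215 CPM from control to GPH in Xist-bearing gated cells, where the GPH value came from 108 UMIs in 10.0% of 20 cells. Among gated cells with Xist and no Cdkn2a, Mmp3 was 835, 24.3, 62.2 and 97.4 CPM from control to GPH, so the order of the libraries was not the same. These 2 proteases were low in the tumour classes.

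Mmp13 and Mmp19 were higher in macrophage-like than in Vim-high cells in every library. Mmp13, a collagenase, was 25.1, 36.2, 10.1 and 66.4 CPM from control to GPH in macrophage-like cells and at most 1.17 CPM in Vim-high and 0.575 CPM in Krt19-high cells. Mmp19, a metalloproteinase of wide substrate range, was 106, 63.4, 214 and 573 CPM from control to GPH in macrophage-like cells and 5.20, 9.18, 12.1 and 59.9 CPM from control to GPH in Vim-high cells. Mmp19 UMIs were found in 6.01%, 8.67%, 10.3% and 38.3% of Vim-high cells (thinned to 2000 UMIs, 1.13%, 1.97%, 2.74% and 9.96%) and in 0%, 1.08%, 0.277% and 0% of T cell-like cells, in the same order. GPH held the highest value of both classes, although its macrophage-like value rests on 48 cells.

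Mmp14, the membrane-anchored collagenase that activates Mmp2, was the one protease present in all 3 main classes. It was 30.8, 46.8, 30.4 and 41.4 CPM from control to GPH in Vim-high cells, 9.82 and 16.4 CPM in G and GPH in Krt19-high cells and 53.1, 99.6, 38.9 and 87.3 CPM from control to GPH in macrophage-like cells. Xist-bearing gated cells had 45.6, 149, 93.2 and 214 CPM from control to GPH. Mmp9, gelatinase B, was 8.68, 4.20, 9.97 and 2.31 CPM from control to GPH in Vim-high cells and at most 5.15 CPM in macrophage-like and T cell-like cells.

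The inhibitors were the most widely spread members. Timp2 was 310.0, 299, 264 and 413 CPM from control to GPH in Vim-high cells, 47.2 and 67.5 CPM in G and GPH in Krt19-high cells and 193, 224, 181 and 97.8 CPM from control to GPH in macrophage-like cells. T cell-like cells also carried Timp2, at 46.7, 33.4, 44.4 and 41.2 CPM from control to GPH. Timp1 was 131, 78.8, 127 and 210.2 CPM from control to GPH in Vim-high cells, 59.1, 36.5, 13.9 and 6.99 CPM from control to GPH in macrophage-like cells and 703, 749, 3173 and 315 CPM from control to GPH in Xist-bearing gated cells. Timp3, the inhibitor that stays bound to the matrix, was 22.0, 13.4, 42.2 and 75.6 CPM from control to GPH in Vim-high cells and 644, 985, 1087 and 629.9 CPM from control to GPH in Xist-bearing gated cells. The endothelial-gated cells had 671, 1549 and 813 CPM of Timp3 in control, PH and G.

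Counted over the captured cells, the sources of matrix RNA followed level, cell number and UMIs per cell. Vim-high cells contributed 92.2%, 93.0%, 67.0% and 78.5% of all Fn1 UMIs from control to GPH. The 101 Xist-bearing gated cells contributed 38.7%, 52.7%, 18.4% and 13.8% of Col1a1 UMIs from control to GPH and 57.8%, 83.9%, 58.2% and 58.2% of Col1a2 UMIs from control to GPH, while Vim-high cells contributed 52.9%, 43.4%, 73.8% and 69.5% of Col1a1 from control to GPH. Xist-bearing gated cells also held 71.4%, 83.0%, 82.1% and 73.1% of Postn UMIs from control to GPH and 87.7%, 85.1%, 99.1% and 80.0% of Lox UMIs from control to GPH. The share of captured UMIs depends on which cells survived dissociation, so it is no share of the tumour's matrix RNA.

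Where Krt19-high cells were present they held part of the captured basement membrane UMIs. Their median depth was 29497 and 42201 UMIs in G and GPH, against 11078 and 15320.0 in Vim-high cells of these libraries. Krt19-high cells summed to 42981858 UMIs in G and 90420074 in GPH, where all barcodes, kept or not, held 144152432 and 143298547. They held 21.4% and 34.6% of Col4a1 UMIs in G and GPH and 20.8% and 39.1% of Nid1 UMIs in G and GPH. For Mmp14 the Krt19-high share was 23.2% and 50.7% in G and GPH. Each of these shares was below the Krt19-high share of all UMIs in its library. Macrophage-like cells held 47.5%, 72.2%, 69.4% and 36.1% of Thbs1 UMIs from control to GPH. For Mmp19 they held 23.9%, 13.1%, 67.7% and 7.23% from control to GPH, the highest share in the library with the most macrophage-like cells.

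**Figure D3:**
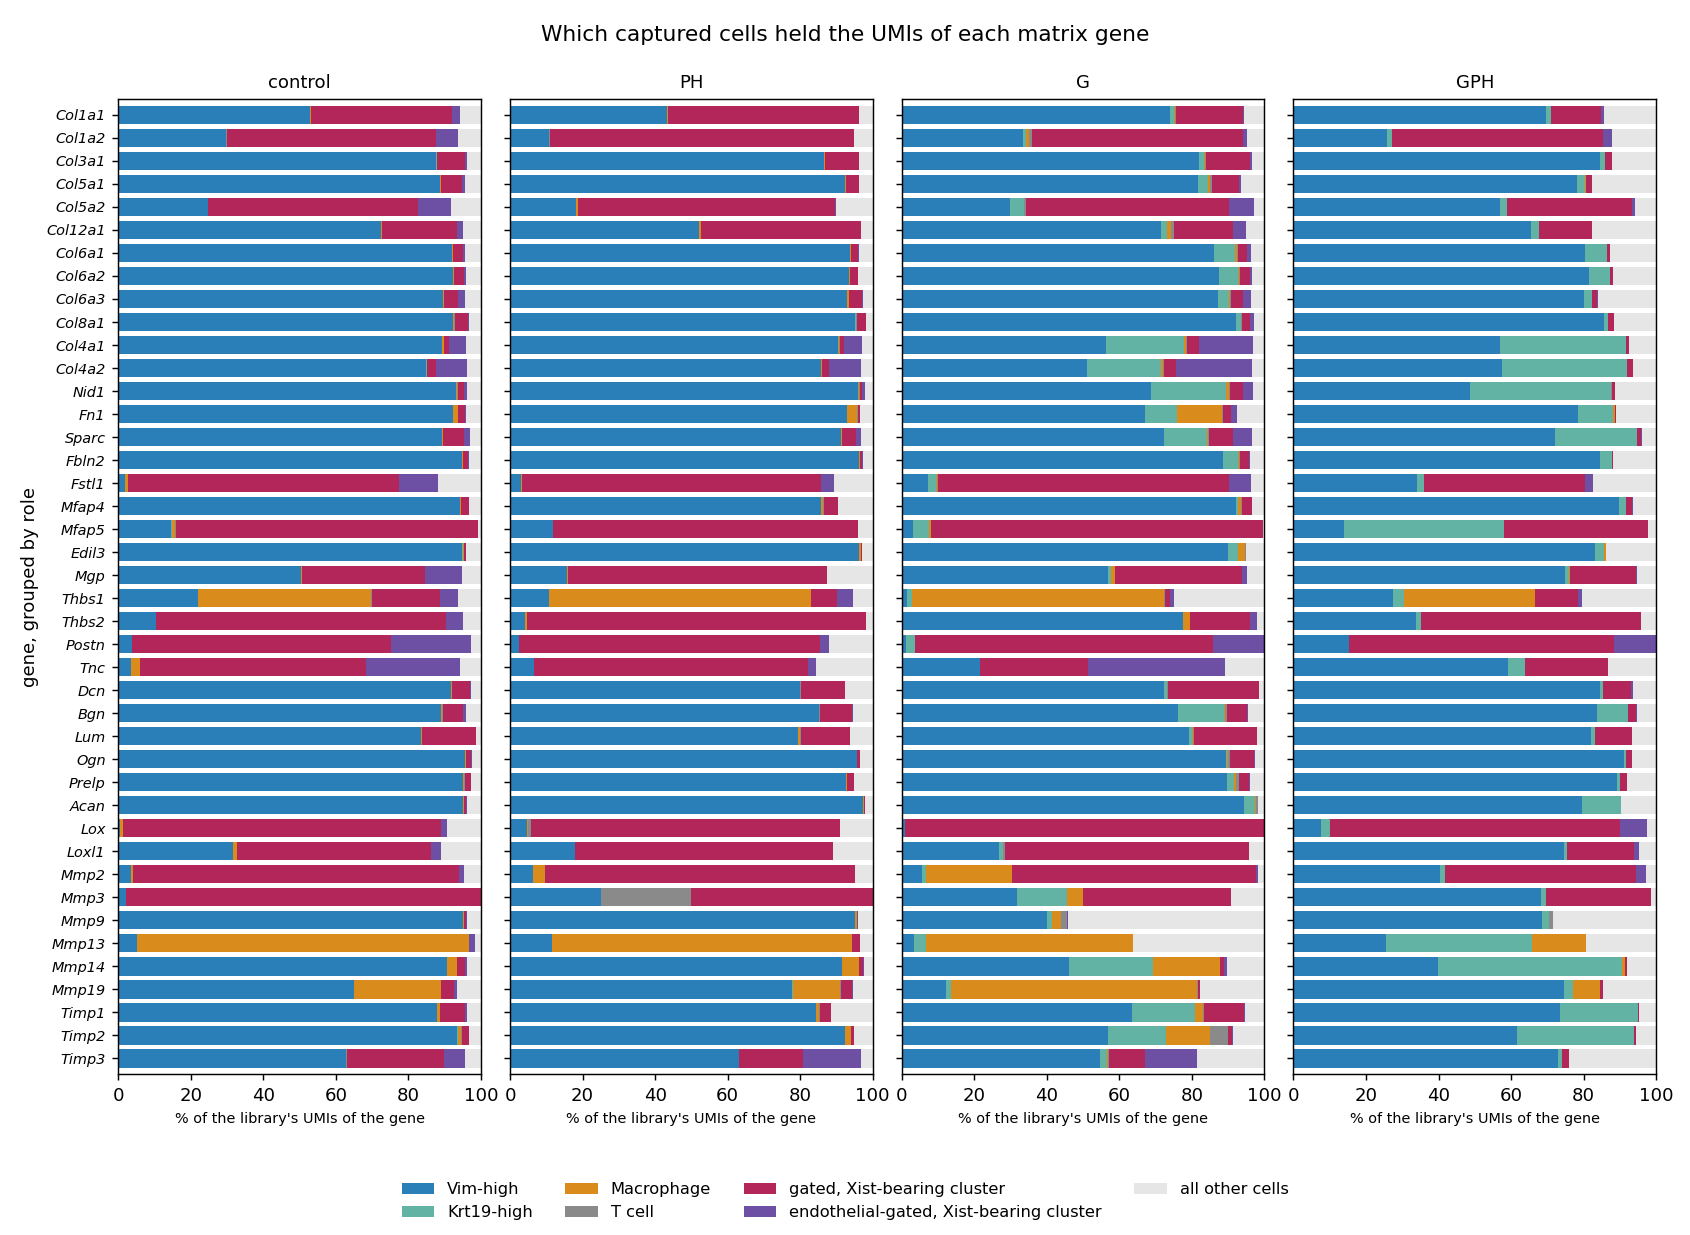
Share of each library's UMIs of a gene (horizontal axis, %) by class, 1 panel a library, with the rest of the cells as the last segment. Vim-high cells hold 92.2% of Fn1 UMIs in control, Xist-bearing gated cells 87.7% of Lox UMIs in control, and macrophage-like cells 69.4% of Thbs1 UMIs in G.

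Of the members measured within a library (at least 20 UMIs and 20 CPM over both sides), those at least 2-fold apart between classes were counted beside the shares of all measured genes that were at least 2-fold higher and lower. Krt19-high cells were lower than Vim-high cells for 15 of 15 members in G (all genes, 14% higher and 11.4% lower), and for 15 of 15 in GPH (all genes, 18.3% higher and 10.1% lower). The median log2 difference of these members was -4.54 in G against -0.05 over all genes, and -4.71 against 0.05 in GPH. Macrophage-like cells were lower than Vim-high for 21 of 24 members in control and higher for 0 (all genes, 9.15% higher and 23.9% lower). In PH 17 of 21 were lower and 2 higher, Thbs1 and Mmp14 (all genes, 9.52% higher and 22.2% lower). In G 19 of 24 were lower and 2 higher, Thbs1 and Mmp19 (all genes, 19.6% higher and 25.8% lower). In control Thbs1 was under the limit on pooled CPM and was not counted. With doublets kept, the count in control and in PH was 1 member each, and Cdkn2a in macrophage-like cells of control was 572 CPM against 113.

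Xist-bearing gated cells were higher than Vim-high cells for 12 of 25 members in control and lower for 2, Edil3 and Acan (all genes, 1.57% higher and 6.53% lower). In PH 18 of 23 were higher and Edil3 and Acan lower (all genes, 6.56% higher and 9.33% lower). In G 24 of 25 were higher and Edil3, without a UMI, lower (all genes, 11.4% higher and 24.9% lower), and in GPH 22 of 26 were higher and 0 lower (all genes, 14.8% higher and 28.5% lower). The median log2 differences of members were 0.99, 2.56, 3.04 and 2.50 against -0.19, -0.14, -0.31 and -0.20 over all genes. The gate selects on Lum, so genes carried by the same cells as Lum are favoured in this count. The gate as given, all 1053 cells, gave smaller counts: 9 of 26 members higher in control (all genes, 0.492% higher and 0.141% lower), 12 of 23 in PH (all genes, 1.02% higher and 0.231% lower), 13 of 25 in G (all genes, 1.43% higher and 0.259% lower) and 5 of 26 in GPH (all genes, 0.993% higher and 0.124% lower), with 0 lower. A gate of Pdgfra, Dpt, Pi16 and Clec3b took 2206, 2147, 573 and 1150 cells from control to GPH. Of these, 2116, 2096, 513 and 986 lay in Vim-high clusters. Its counts against Vim-high cells, 2, 5, 5 and 0 members 2-fold apart, thus compare mostly Vim-high cells with each other. The share over all genes under that gate is not reported here.

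Within Vim-high cells, PH had less RNA of several fibril-coating genes than control. Of 23 measured members 6 were at least 2-fold lower and 1 higher (all genes, 0.815% higher and 1.58% lower). Mfap4 was 4.04-fold lower (95% interval 3.78 to 4.31). Bgn was 2.62-fold lower (95% interval 2.54 to 2.70), Col1a1 2.57-fold lower (95% interval 2.44 to 2.71), Prelp 2.51-fold lower (95% interval 2.38 to 2.65), Dcn 2.42-fold lower (95% interval 2.36 to 2.47) and Ogn 2.23-fold lower (95% interval 2.15 to 2.31). Nid1 was 2.22-fold higher (95% interval 2.16 to 2.29). The median log2 difference was -0.20 over members and 0.00 over all genes.

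The make-up of the Vim-high class differed between these libraries. A cluster led by Acta2 and Mfap4 held 31.1% of Vim-high cells in control and 6.94% in PH. Within that cluster alone the PH to control ratio was 0.397 for Mfap4, 0.484 for Bgn, 0.561 for Col1a1, 0.579 for Prelp, 0.539 for Dcn, 0.789 for Ogn and 2.05 for Nid1. Within the cluster led by Ptn (12.9% of Vim-high cells in control, 11.6% in PH) it was 0.294 for Mfap4, 0.588 for Bgn, 0.505 for Col1a1, 0.468 for Prelp, 0.502 for Dcn, 0.698 for Ogn and 2.33 for Nid1. These 7 genes had the same direction in both clusters, and Mfap4 and Nid1 stayed past 2-fold in both, Bgn in the Acta2-led and Prelp in the Ptn-led one. Most Vim-high cells of PH lay in other clusters, with the same directions but other sizes. In a Clca3a1-led one (14.2% of Vim-high cells in control, 18.5% in PH) all 7 were past 2-fold. Dcn was 212 and 43.0 CPM in control and PH, Bgn 231 and 42.1, Ogn 144 and 29.2 and Prelp 56.4 and 9.29. Col1a1 was 62.6 and 15.2, Mfap4 62.9 and 7.26 and Nid1 58.0 and 139. Nid1 was short of 2-fold in a Pimreg-led cluster (48.5 and 89.7) and in Prl2c2-led ones (63.9 and 92.9, 90.8 and 138).

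G was higher than control in Vim-high cells for 1 of 24 members, Col1a1, and lower for 0 (all genes, 0.585% higher and 1.22% lower). Col1a1 was 2.31-fold higher (95% interval 2.20 to 2.43). Timp3 came close, at a ratio of 1.92 (95% interval 1.79 to 2.06). The median log2 difference was -0.28 over members and -0.05 over all genes. Col1a1 was also higher in G within the Ptn-led cluster (ratio 2.35) and the Acta2-led cluster (2.51).

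GPH was higher than control for 6 of 24 members and lower for 1 (all genes, 5.77% higher and 1.84% lower). Timp3 was 3.45-fold higher (95% interval 3.25 to 3.65). Fn1 was 2.24-fold higher (95% interval 2.21 to 2.27), Bgn 2.23-fold higher (95% interval 2.17 to 2.29), Fbln2 2.19-fold higher (95% interval 2.16 to 2.22), Col1a1 2.19-fold higher (95% interval 2.09 to 2.30) and Col3a1 2.11-fold higher (95% interval 2.07 to 2.15). Acan was 2.77-fold lower (95% interval 2.46 to 3.14). Mmp19, below the limit on level, had a ratio of 11.5 (95% interval 10.5 to 12.7). The median log2 difference was 0.64 over members against 0.09 over all genes.

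The Ptn-led cluster held 70.2% of Vim-high cells in GPH, against 12.9% in control and 20.5% in G. This cluster carried fibroblast markers such as Dpt but had Cdkn2a at 957 CPM and Xist at 2.38 CPM, and the fibroblast list summed to 479.7, 352, 462 and 1061 CPM from control to GPH in Vim-high cells. Within it the GPH to control ratio was 3.29 for Timp3, 1.69 for Fn1, 1.80 for Bgn, 1.87 for Fbln2, 1.78 for Col1a1, 1.84 for Col3a1 and 0.279 for Acan. Within the Acta2-led cluster it was 3.26 for Timp3, 1.59 for Fn1, 1.95 for Bgn, 1.55 for Fbln2, 1.61 for Col1a1, 1.12 for Col3a1 and 0.201 for Acan. So Timp3 and Acan stayed past 2-fold in both of these clusters and the other 5 in neither. Acan was below the limit on level in each. A Pimreg-led Vim-high cluster (1297 cells in control, 121 in GPH) differed. There, in control and GPH, Timp3 was 14.2 and 70.3 CPM, Fn1 276 and 579, Bgn 72.8 and 153 and Fbln2 315 and 641. Col1a1 was 26.6 and 66.1 CPM, Col3a1 217 and 347 and Acan 41.8 and 32.8. All but Col3a1 and Acan were past 2-fold there. Dcn, at a ratio of 0.824 (95% interval 0.798 to 0.850) over all Vim-high cells, had 0.380 within the Ptn-led and 0.363 within the Acta2-led cluster. Mmp19 in the Ptn-led cluster was 13.6, 24.6, 48.9 and 80.0 CPM from control to GPH.

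Compared with G, GPH had 8 of 26 members higher and 0 lower (all genes, 5.09% higher and 2% lower), with a median log2 difference over all genes of 0.20 against 0.71 over members. Mmp19 was 4.96-fold higher (95% interval 4.41 to 5.60). Of chains of type IV and type VI collagen, Col4a1 was 2.46-fold higher (95% interval 2.32 to 2.60), Col4a2 2.45-fold higher (95% interval 2.23 to 2.70), Col6a1 2.22-fold higher (95% interval 2.14 to 2.31) and Col6a2 2.32-fold higher (95% interval 2.21 to 2.45). Fbln2 was 2.77-fold higher (95% interval 2.71 to 2.84), Prelp 2.71-fold higher (95% interval 2.47 to 2.97) and Fn1 2.28-fold higher (95% interval 2.24 to 2.33). Within the Acta2-led cluster the ratio was 2.45 for Mmp19, 1.90 for Fbln2, 1.70 for Prelp, 1.65 for Col6a2, 1.54 for Col4a1, 1.51 for Fn1, 1.48 for Col4a2 and 1.38 for Col6a1. Within the Ptn-led cluster it was 1.64 for Mmp19, 2.23 for Fbln2, 1.47 for Prelp, 1.71 for Col6a2, 1.84 for Col4a1, 1.55 for Fn1, 2.29 for Col4a2 and 1.52 for Col6a1. Mmp19 alone, below the limit on level there, stayed past 2-fold in the first. Fbln2 and Col4a2 did in the second, so 0 of the 8 did in both. In the Pimreg-led cluster (447 cells in G, 121 in GPH), Fbln2 was 273 and 641 CPM in G and GPH, past 2-fold. So were Col6a1 (100.4 and 202.2), Col6a2 (58.0 and 146) and Mmp19 (5.51 and 22.5, below the limit on level). Col4a1, Col4a2, Fn1 and Prelp were not. Col6a3, Col8a1 and Nid1 had ratios of 1.85, 1.14 and 1.26 over all Vim-high cells, and Col1a1 of 0.948 (95% interval 0.897 to 1.00). In Krt19-high cells 0 of 5 measured members were 2-fold apart between the same libraries (all genes, 4.26% higher and 0.67% lower), and Col4a1 had the highest ratio, 1.92 (95% interval 1.76 to 2.10).

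Compared with PH, GPH had 8 of 23 members higher and 1 lower (all genes, 5.77% higher and 2.01% lower). Bgn was 5.83-fold higher (95% interval 5.65 to 6.03), Col1a1 5.64-fold higher (95% interval 5.32 to 5.99) and Timp3 5.63-fold higher, and Prelp, Timp1, Col3a1, Col5a1 and Ogn were 2.18-fold to 3.95-fold higher. Acan was 3.96-fold lower (95% interval 3.52 to 4.48). Within the Acta2-led cluster the ratio was 4.02 for Bgn, 3.82 for Timp3, 2.87 for Col1a1, 1.89 for Prelp, 1.88 for Timp1, 1.24 for Col5a1, 1.15 for Col3a1, 0.789 for Ogn and 0.185 for Acan. Within the Ptn-led cluster it was 3.06 for Bgn, 2.92 for Timp3, 3.52 for Col1a1, 1.64 for Prelp, 3.02 for Timp1, 1.28 for Col5a1, 1.92 for Col3a1, 1.17 for Ogn and 0.224 for Acan. Bgn, Timp3, Col1a1 and Acan (below the limit on level in each) stayed past 2-fold in both of these clusters and Timp1 in the Ptn-led one. Ogn turned to the other direction in the Acta2-led one. In the Pimreg-led cluster Bgn (20.8 and 153 CPM in PH and GPH) and Col3a1 (151 and 347) were past 2-fold. So were Timp3, Col1a1, Prelp, Col5a1 and Ogn, all below the limit on level. Timp1 (82.0 and 107) and Acan (63.9 and 32.8) were not. The comparisons of PH, G and GPH with control share the control library, and those of GPH share GPH.

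**Figure D4:**
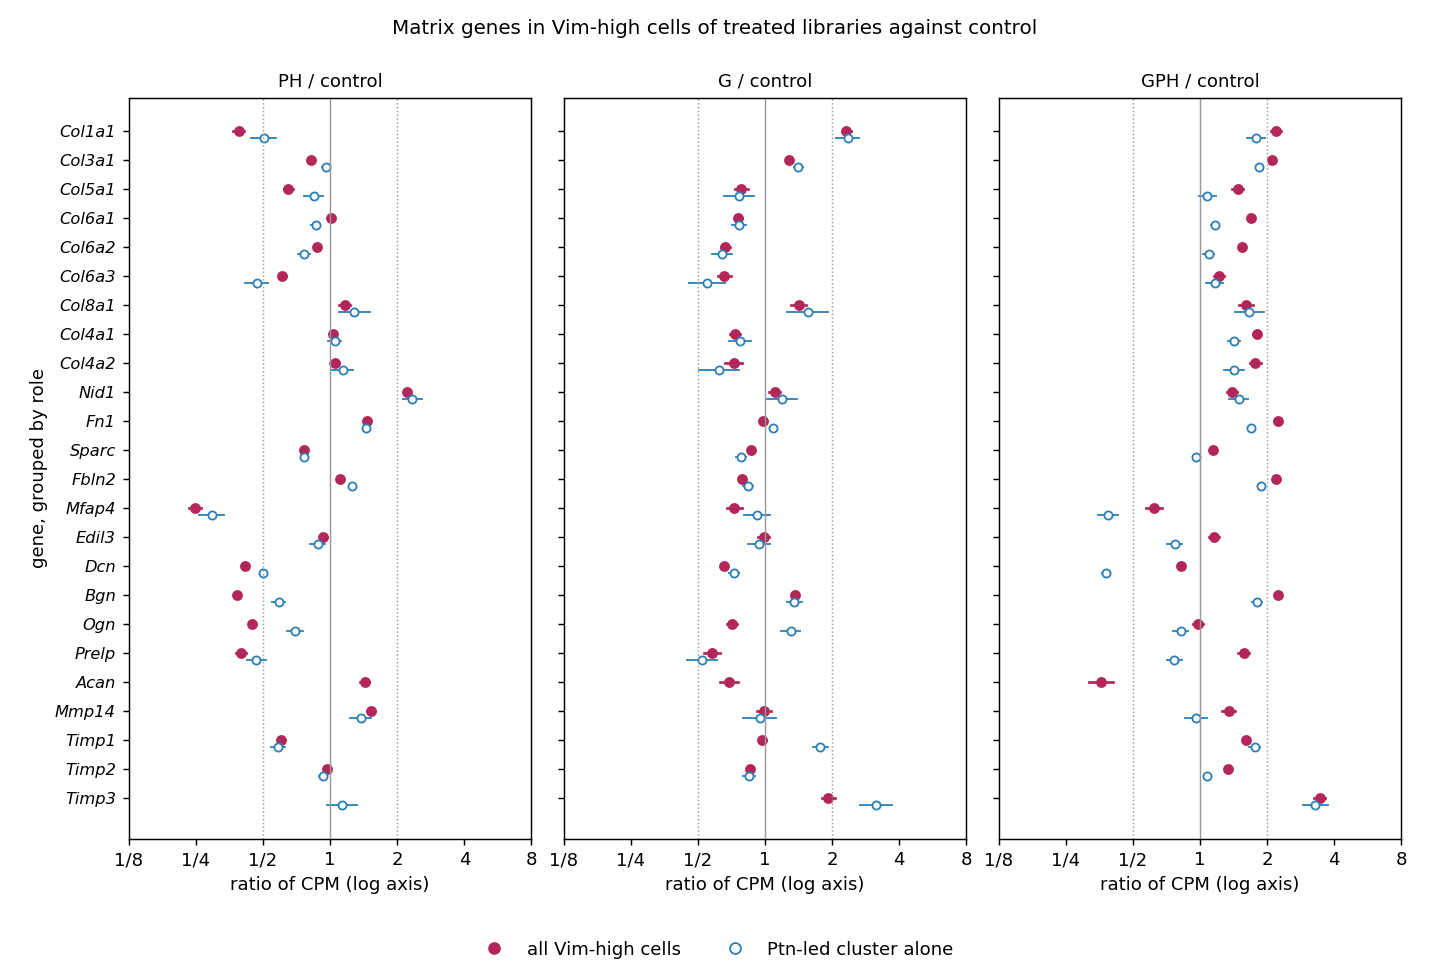
Ratio of each treated library to control in Vim-high cells (horizontal axis, log scale) for the measured members, with 95% intervals for counting error; open symbols are the Ptn-led cluster alone and dotted lines mark 2-fold either way. Mfap4 lies lowest in PH at 0.248, Col1a1 is the one member past 2-fold in G at 2.31, and Timp3 lies highest in GPH at 3.45.

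In macrophage-like cells PH was higher than control for Fn1 among 11 measured members (all genes, 4.9% higher and 1.8% lower), by a ratio of 2.25 (95% interval 2.10 to 2.41). Thbs1, at 1.99 (95% interval 1.85 to 2.13), lay at the limit. G was higher than control for Thbs1, by 2.95 (95% interval 2.77 to 3.14), and Mmp19, by 2.01 (95% interval 1.75 to 2.32), and lower for Timp1, at 0.234 (95% interval 0.181 to 0.303), among 6 measured (all genes, 8.07% higher and 5.04% lower). Cdkn2a in these cells was 113 CPM in control and 11.6 in G, and Timp1 is also a Vim-high transcript; the part of tumour RNA in the Timp1 value was not tested. With mitochondrial and ribosomal genes left out of the scaling, the split was 2 higher and 1 lower for PH and 2 higher and 2 lower for G. GPH, with 48 macrophage-like cells, was not compared.

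Across all gated cells PH was higher than control for 7 of 34 members (Col1a2, Col5a2, Col12a1, Fstl1, Lox, Nid1 and Mgp) and lower for 0 (all genes, 1.93% higher and 1.6% lower). G was higher than control for 4 of 31 (Thbs1, Mfap5, Fstl1 and Mgp) and lower for Col12a1 (all genes, 2.49% higher and 2.05% lower). GPH was higher than control for Mmp19 alone of 31 (all genes, 7.98% higher and 2.51% lower), and 2 were higher and 3 lower when scaled without mitochondrial and ribosomal genes. GPH was higher than G for 4 of 36 (Col4a2, Fbln2, Mmp3 and Mmp19) and lower for 6, among them Lox, Loxl1 and Mmp2 (all genes, 6.52% higher and 2.24% lower; 3 higher and 10 lower without mitochondrial and ribosomal genes). Of the 140 Mmp3 UMIs in gated cells of GPH, 108 came from 10.0% of the 20 Xist-bearing cells. GPH was higher than PH for Mmp19 and lower for 9 of 35, among them Col1a1, Col1a2 and Postn (all genes, 6.66% higher and 1.53% lower). Xist-bearing cells made up 31 of 439, 26 of 284, 24 of 158 and 20 of 172 gated cells from control to GPH. They held 1733529 of 10617382, 484484 of 4101803, 193167 of 2539275 and 88900 of 3492970 gated UMIs in the same order. The part of either share in these results was not tested.

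Other genes of matrix biology, from lists that are not members, were counted the same way in Vim-high cells. Of 20 collagen assembly genes (hydroxylases, chaperones and propeptide-cleaving enzymes) 13 were measured, and 0 were 2-fold apart in PH, G or GPH against control. Of 13 other basement membrane genes 5 were measured, with 0 apart. Of 18 matrix receptors 10 were measured, with 0 apart in PH or G and 3 higher in GPH (Cd44, Itga5 and the syndecan Sdc1). Of 24 other proteases and inhibitors 6 were measured, with 0 apart in PH or G. Of 11 genes of the TGF-beta response 7 or 8 were measured, with 1 higher in PH (Ltbp1) and 0 in G. At least 2-fold higher over all measured genes were 5.77% for GPH, 0.585% for G and 0.815% for PH. The median log2 differences of the assembly genes were -0.01 in PH, -0.13 in G and 0.15 in GPH, against 0.00, -0.05 and 0.09 over all genes. In GPH the medians were 0.52 for the basement membrane genes and 0.53 for the receptors. Cd44, the hyaluronan receptor, was 115, 199, 187 and 236 CPM from control to GPH, and Itga5, the fibronectin-binding integrin chain, was 33.9, 44.0, 48.9 and 97.2 CPM from control to GPH. The genes named from these lists were named after their values were seen. Serpinh1, the collagen chaperone, was 98.2, 53.2, 97.9 and 113 CPM from control to GPH in Vim-high cells and 296, 502, 818 and 832 CPM from control to GPH in Xist-bearing gated cells.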

How the data were processed

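Each deposited matrix gives UMI counts by gene and cell barcode, not normalized. Cell Ranger is named as 6.1, with mm10, per the submitters' processing notes and as 7.0.1 per the file headers. Cells were kept with at least 500 UMIs, 300 genes and at most 20% mitochondrial UMIs. The threshold that Scrublet set itself marked 0, 1, 0 and 7 doublets (control to GPH), so the highest scores were removed at 0.8% per 1000 cells (977, 2056, 1573 and 168 barcodes). Clustering used all libraries at once and no batch correction, with 2000 variable genes without the 42 members, 30 principal components, 15 neighbours and Leiden resolution 1, in scanpy 1.11.5 (Python 3.11.15, numpy 2.4.6, scipy 1.17.1, scikit-learn 1.9.0, igraph 0.11.9).

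Clusters were classed by levels of Ptprc, Krt19, Vim and Xist and by marker lists (at least 3 markers at 50 CPM and 2-fold over other cells); Vim-high clusters were also required to reach 1/3 of the median depth of their libraries. Summed counts gave CPM, with exact Poisson intervals, and ratios with exact conditional binomial intervals. Shares of cells have Clopper-Pearson limits. A count of 0 allows 3 counts. Genes counted as measured had at least 20 UMIs and 20 CPM over both sides, and a 2-fold difference was counted. Members reaching 50 CPM in a class of at least 50 cells (33 of 42) are given by library, and the other 9 by range or by library. The comparison code was tested on simulated data. Members, lists and comparisons were chosen with earlier results of these data known. All 42 members matched GENCODE vM21 by Ensembl ID, and exons of 12 overlap exons of another counted gene; whether counting used strand is not given in the sources used here. Alternatives were other filters, scalings, gates, clusterings and single clusters. The counts of GPH against control for 2 of the further gene lists are not reported here.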

Additional observations from a re-analysis of the deposited data

Results flagged for a closer look

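Col1a2 was found outside the classes described, in a cluster led by Neat1 (318, 80, 15 and 382 cells from control to GPH) whose median depth was 0.254 of that of its libraries and which entered no class. Its level there was 116 CPM (95% interval 97.1 to 138) in control, against 11.4 CPM in Vim-high cells of control. In GPH it was 25.5 CPM (95% interval 19.5 to 32.9), against 7.09 CPM in Vim-high cells of GPH. Col1a2 was not alone. In that cluster of control Col1a1 was 169 CPM against 40.1 in Vim-high cells, Col3a1 744 against 322, Col6a1 487 against 185 and Fn1 1304 against 614. Prelp (28.6 against 39.7) and Timp1 (94.8 against 131) were lower. It held 130 Col1a2 UMIs beside 189 of Col1a1. Mmp9, low in every class described, was 342 CPM (95% interval 308 to 379) in G in a cluster led by S100a9 and S100a8 (834 cells in G), in which 5 of 5 neutrophil markers met the marker rule, against 9.97 CPM in Vim-high cells of G.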

How the results depend on the processing

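Counts below are members at least 2-fold apart in either direction. The cause of each move was not tested unless a value is given. The number of genes measured and the share of all genes called can change with the setting and are not given here. The counts therefore show how the calls depend on processing and are no result about the members. No paired analysis was possible because each group is 1 library. At a fold of 1.5 the counts in Vim-high cells were 11 in PH against control, 6 in G against control, 15 in GPH against control, 15 in GPH against G and 18 in GPH against PH; Krt19-high GPH against G had 1 and macrophage-like PH against control 5. Gated cells then had 17, 10 and 7 in PH, G and GPH against control and 20 in GPH against G, and against Vim-high cells 15 in control and 8 in GPH.

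With a limit of 100 CPM fewer genes were tested: Vim-high counts were 1, 0 and 4 in PH, G and GPH against control, 5 in GPH against G and 2 in GPH against PH, and gated counts 2, 1 and 0 against control, 2 in GPH against G and 3 in GPH against PH. With no limit on CPM more were tested: Vim-high counts were 13, 7 and 19 against control, 16 in GPH against G and 25 in GPH against PH, Krt19-high GPH against G 5, macrophage-like 4 in PH and 18 in G, and gated 12, 11 and 5 against control.

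Without mitochondrial and ribosomal protein genes in the total, G against control had 3 in Vim-high cells, PH against control 3 in macrophage-like cells, and gated cells 8 in G and 5 in GPH against control. With each cell at equal weight, G against control had 2 in Vim-high cells, PH against control 2 in macrophage-like cells, gated cells 9 in GPH against control and 3 in GPH against PH, and gated against Vim-high cells 8 in GPH. At a mitochondrial limit of 10%, PH against control had 2 in macrophage-like cells and GPH against control 2 in gated cells.

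With Vim-high clusters at equal weight, GPH against control had 3 and GPH against G 2. The Acta2-highest cluster alone gave 3, 3 and 3 against control, 2 in GPH against G and 4 in GPH against PH, and the ratio of Ogn in GPH against PH turned to 0.789. The Ptn-highest cluster alone, an alternative chosen after seeing the data, gave 4, 4 and 4 against control and 4 in GPH against G. These alternatives use fewer cells.

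Gated against Vim-high cells gave 14, 20, 25 and 22 in control, PH, G and GPH with the gate kept to the Xist-bearing cluster. With Xist and no Cdkn2a required it gave 22 in control, 25 in G and 22 in GPH. A gate of Pdgfra, Dpt, Pi16 and Clec3b, which took mostly cells of Vim-high clusters, gave 2, 5, 5 and 0. With doublets kept, macrophage-like against Vim-high cells gave 1 in control and 1 in PH, with Cdkn2a at 572 CPM in macrophage-like cells of control against 113; macrophage-like counts were 7 in PH and 13 in G against control, gated counts 3, 3 and 3 against control, 6 in GPH against G and 6 in GPH against PH, and gated against Vim-high 3, 3, 5 and 2. The Xist-bearing cluster then had Ptprc at 61.1 CPM, above the limit of 50 for immune clusters, and its comparisons gave no value. No count moved by over 1.5 times at Leiden resolution 0.5, with members among the variable genes, with the gate at 4 UMIs or without the depth limit. Of single-gene ratios, 208 moved by more than counting error, 271 did not and 1 reversed. Few cells limit the values of the 101 Xist-bearing gated cells and the 48 macrophage-like cells of GPH, and the Xist-bearing gated cells of GPH are also shallow, at a median of 2316 UMIs.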

Other observations

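Genes of matrix biology outside the 42 also differed between the classes. Adamts2, which cleaves the amino-terminal propeptide of fibrillar procollagens, was 36.3, 136, 311 and 382 CPM from control to GPH in Xist-bearing gated cells and 0.0336, 0.0701, 0 and 0.142 CPM from control to GPH in Vim-high cells. Col15a1, a collagen of the zone next to basement membranes, was 47.3, 157, 362 and 517 CPM from control to GPH and 0.0420, 0.0856, 0.255 and 0.213 CPM from control to GPH in the same cells. Lama4, a laminin chain of endothelium and mesenchyme, was 15.0, 132, 155 and 169 CPM from control to GPH in Xist-bearing gated cells and 0.0336, 0.0701, 0.0364 and 0.213 CPM from control to GPH in Vim-high cells. Mmp12, the macrophage elastase, was 139, 88.4, 129 and 804 CPM from control to GPH in macrophage-like cells, where GPH rests on 48 cells. These 4 genes were named after their values were seen, and their differences were not tested. Among clusters outside the classes described, Thbs1 was 1469 CPM in the S100a9-led cluster of G and 422 CPM in a cluster of G led by Ccl17.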
